A study of Picea abies with 19 samples.

Results

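Transcript levels in adventitious roots of Norway spruce (Picea abies) genotype 52 were compared between cuttings of 18 months and cuttings of 5 months. The comparison takes the 4 of 19 arrays whose sample titles name genotype 52: replicates 1 and 6a at 18 months and replicates 4 and 6b at 5 months, 2 arrays against 2. The titles alone decide which arrays belong, although the comparison itself was picked with earlier results of these data known. Per the labels, age was counted from the start of adventitious rooting, and cuttings of both ages grew in fertilised peat in a nursery and were sampled in late September. Each sample joined several ends of washed short roots. The labels name no treatment. The titles place genotype 52 among the genotypes called Slow, and the labels do not say what was slow. All cuttings of genotype 52 are 1 clone, so the comparison describes this clone. The labels speak of biological samples but do not tie them to plants, and they do not say whether 6a and 6b share one. The p-values rest on the spread between samples of the same genotype and age, pooled over 17 arrays of this and other genotypes. That spread may therefore be partly technical.

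The study sampled 8 genotypes. The other 15 arrays come from genotypes 15, 18, 20 and 35, which the titles call Fast, and 61, 70 and 76, which they call Slow. Genotypes 20 and 35 were also sampled at both ages, with 2 arrays at 18 months and 1 array at 5 months each. They serve here to estimate the spread between arrays and to set the age difference of genotype 52 beside that of other genotypes.

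A cutting is a shoot that forms roots anew from its stem, so that every root of the plant is adventitious. The fine short roots of spruce take up water and mineral nutrients and are commonly colonised by mycorrhizal fungi. As a conifer root ages behind its tip, the endodermis becomes suberised, the cortex dies and is shed, and the cambium adds secondary xylem and phloem, while the tip keeps a meristem. Transcripts of cell division, wall growth, lignin and suberin synthesis and nutrient uptake are therefore of interest between young and old roots. The files used here pair no probe with a gene, so such groups were not formed, probes are given by ID, and the labelled tissue was not checked against marker genes.

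Each sample was hybridised alone, as amplified RNA labelled with the dye AlexaFluor 647, to an array of spotted oligonucleotides. Per the labelling protocol, the amplification started from total RNA or from mRNA, without saying which for which sample. The array holds 32144 spruce probes, each present once, and 2848 control spots. Values below are log2 intensities after background correction and quantile normalisation, and a probe counts as above background where its spot exceeds the local background by 2 background standard deviations. At 18 months, 11494 probes (35.8 percent) were above background on replicate 1 and 13937 (43.4 percent) on replicate 6a. At 5 months, 11228 probes (34.9 percent) were above background on replicate 4 and 8848 (27.5 percent) on replicate 6b. The local background was higher at 5 months, with medians of 421 and 477 intensity units against 270 and 184 at 18 months. On the other 15 arrays these medians ranged from 96 to 721, and the share of probes above background from 15.4 to 57.5 percent. Both the lowest median and the highest share were those of genotype 20 at 18 months, replicate 3. Replicate 5 of that genotype and age had a median of 256 and a share of 38.8 percent. The number of arrays limits the precision.

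The scan times in the files divide the genotype 52 arrays by age. Numbered in order, both 18-month arrays were scanned on day 4, 5-month replicate 4 on day 7 and 5-month replicate 6b on day 2. Within genotype 52, day 4 of scanning and the age of 18 months cannot be told apart. A single other array was scanned on day 4, genotype 20 at 18 months, replicate 3, whose partner, replicate 5, was scanned on day 7. By the labels of the scanner files, this pair shares genotype and age. By those labels it gives the only difference between day 4 and another day without a difference in age or genotype. The pair also differed in local background and in the share of probes above background, as given above. Its values stand beside the results below.

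Sample names in the authors' deposited table do not match those of the scanner files. After each probe was centred over the arrays, the scanner file of 18-month replicate 1 correlated at 0.181 with the table column of its own name and at 0.858 with the column named for genotype 61, 18 months, replicate 5. For 18-month replicate 6a the own column gave 0.378 and the column of genotype 61, 18 months, replicate 3 gave 0.824. For 5-month replicate 6b the own column gave -0.24 and the column of genotype 20, 18 months, replicate 5 gave 0.850. The file of 5-month replicate 4 gave -0.09 with its own column and matched no other clearly, the highest correlation being 0.382. The 4 table columns named for genotype 52 matched scanner files of genotypes 35, 20, 20 and 76 instead, at 0.848 to 0.923, and all 4 of those files were labelled 18 months. The files of genotype 20 were the day 4 array and its partner. The day 4 array was the best match of the column of 18-month replicate 6a (0.861). Its partner was the best match of the column of 5-month replicate 4 (0.848). Were the names of the table right, that pair would differ in age. These are Pearson correlations across 32144 probes of the same 19 arrays, and probes are not independent replicates. No sample was reassigned, and which source carries the right names is not known. The samples are called here by the labels of their scanner files, and directions that turn in the deposited table are given with the alternatives to the processing.

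The pair of 18-month arrays resembled each other closely, and the pair of 5-month arrays did not. Across the 12629 probes above background on at least 2 of the 4 arrays, the Spearman correlation was 0.913 between the 18-month arrays and 0.736 between the 5-month arrays. Correlations across the ages ran from 0.634 to 0.785, so the 5-month replicates were no more like each other than 5-month replicate 6b was like the older roots. The closest array of another genotype was the same for both 18-month arrays: the day 4 array of genotype 20, at 0.878 with replicate 1 and 0.892 with replicate 6a. For 5-month replicate 4 it was genotype 61 at 18 months, replicate 5, at 0.872, and for 5-month replicate 6b it was genotype 18 at 18 months, replicate 4, at 0.862. Both 5-month arrays were thus closer to an 18-month array of another genotype than to each other. These correlations are a description over probes that share arrays, and no test was made of them.

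**Figure D1:**
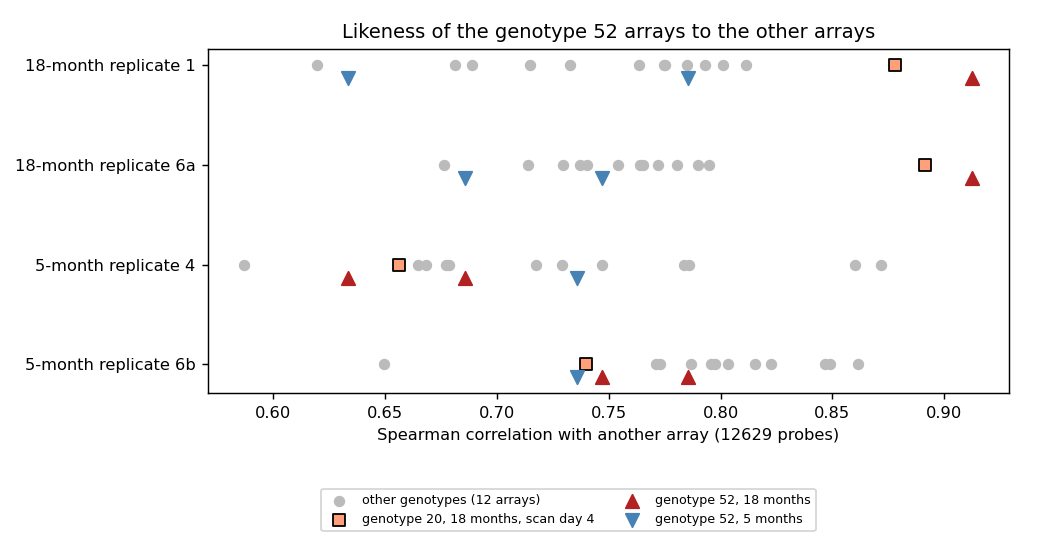
Spearman correlation (horizontal axis) of each genotype 52 array (rows) with every other array of the comparison, over 12629 probes. The 18-month arrays lie at 0.913 with each other and next at 0.878 and 0.892 with the array of genotype 20 scanned on the same day, while the 5-month arrays lie at 0.736 with each other.

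The same unevenness showed in the log2 values of single probes. The median gap between the pair of arrays was 0.32 log2 units at 18 months and 0.66 at 5 months. The median size of the difference between the age means was 0.57, and a mean of 2 arrays varies less than a single array does. Gaps over 1 log2 unit, a change of 2-fold, separated the 18-month arrays at 886 probes (7.02 percent) and the 5-month arrays at 3865 (30.6 percent). The age means differed by more than 1 log2 unit at 1840 probes that were higher at 18 months and 1265 that were lower. Both 18-month values lay above both 5-month values at 3675 probes (29.1 percent of those tested) and below both at 2953 (23.4 percent). At 6001 probes the ages overlapped. The filter admitted 1281 probes above background only at 18 months and 113 only at 5 months. Among the 7521 probes above background on all 4 arrays, the means differed by over 1 log2 unit at 911 higher and 913 lower probes. Both 18-month values lay above at 1965 of these and below at 2149, so the larger counts on the higher side depended on the filter. The median difference over all tested probes was 0.06 after quantile normalisation, which gives every array the same distribution.

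No probe passed the test for age. In limma's fit over 17 arrays, with 1 mean for each of 10 genotype-by-age groups and the 2 late-scanned arrays of genotype 76 left out, 0 of 12629 probes (0 percent) had a Benjamini-Hochberg adjusted p below 0.05. The smallest adjusted p was 0.0815. Without adjustment, 1181 probes (9.35 percent) were higher at 18 months and 1001 (7.93 percent) were lower at p below 0.05. With only the 7521 probes above background on all 4 arrays in the fit, 545 were higher and 730 lower. At an adjusted p below 0.1 the fit of all 12629 probes named 14 higher and 32 lower. The median probe's difference was known to within 1.07 log2 units on either side (95 percent interval), and 620 probes had an interval that excluded any difference over 1 log2 unit. For most probes a difference of 2-fold was therefore not excluded by these arrays.

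The count of 0 depended on which arrays and terms entered the fit, and some of these settings changed the age means as well as the spread. With the spread estimated without the day 4 array of genotype 20, a setting chosen after the data had been seen, 156 probes passed, 25 higher and 131 lower. With the 4 arrays of genotype 52 alone 25 probes passed, all of them lower at 18 months. Within the first scan period, which sets both 18-month arrays against 5-month replicate 6b alone, 287 passed, 110 higher and 177 lower. That lone 5-month array is assumed there to vary like the other groups. In that period only 2 groups held 2 arrays, among them the 18-month pair of genotype 52. Leaving out single arrays gave 1 passing probe without 18-month replicate 1, 0 without 18-month replicate 6a, 4 without 5-month replicate 4 and 1 without 5-month replicate 6b. Of the 25 probes, 24 were also among the 287 and 23 among the 156. With scan day 4 as a term in the fit, which the pair of genotype 20 makes possible, 1 probe passed and the number at an unadjusted p below 0.05 dropped from 2182 to 456. That probe, Spruce_15536, was named after its values were seen. It read 12.20 and 12.32 at 18 months and 12.53 and 12.88 at 5 months, a difference of -0.45, and 5.37 with the day 4 term (limma's adjusted p = 0.0290). That value rests on the day 4 array of genotype 20, where the probe was not well above background, unlike on every other array.

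The probes lower at 18 months included the most separated values. Spruce_29790, the probe of smallest p, read 9.05 and 9.29 on 18-month replicates 1 and 6a and 12.55 and 12.28 on 5-month replicates 4 and 6b. The difference was -3.25 ± 0.49 (SE, 2 arrays per age; limma's adjusted p = 0.0815), and 2.99 log2 units separated the nearest values of the ages. The 10 other 18-month arrays not scanned on day 4 read 10.94 to 12.40, so the 18-month cuttings of genotype 52 lay below all of them while the 5-month values lay at their upper end. The day 4 array of genotype 20 read 10.30, between both, and its partner 11.82.

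Spruce_30742 had the widest difference among the 10 lower probes of smallest p. It read 9.94 and 10.30 at 18 months and 15.59 and 14.62 at 5 months, a difference of -4.99 ± 0.78. Bright values were the rule elsewhere, since the 10 other 18-month arrays read 14.60 to 15.42. The day 4 array of genotype 20 read 11.76 against 15.03 on its partner, a gap of -3.27 in samples of 1 age.

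Spruce_30674 and Spruce_12145 had the same arrangement. Spruce_30674 read 9.24 and 9.38 at 18 months and 13.90 and 14.38 at 5 months, a difference of -4.83 ± 0.80. On the day 4 array of genotype 20 it read 10.09, and on its partner 13.71. Both dim values of the older roots thus had a near neighbour on the one other array of their scan day. Spruce_12145 read 11.50 and 10.86 at 18 months and 15.88 and 15.83 at 5 months, a difference of -4.67 ± 0.77, and 11.97 on the day 4 array of genotype 20 against 14.75 on its partner.

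Other probes of this group were lower in the older roots of genotype 52 without a like gap in genotype 20. Spruce_11416 read 9.50 and 9.18 at 18 months and 11.49 and 11.54 at 5 months, a difference of -2.17 ± 0.36. Genotype 20 read 10.83 on the day 4 array and 10.97 on its partner. With the day 4 term the difference was -2.03 ± 0.63 and did not pass (limma's adjusted p = 0.9996). Spruce_12143 read 8.81 and 8.55 at 18 months and 10.84 and 10.70 at 5 months, a difference of -2.09 ± 0.35, and the pair of genotype 20 differed by -0.39. At both probes the 18-month arrays of genotype 52 lay below all 11 other 18-month arrays of the fit.

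The remaining lower probes of smallest p were Spruce_11769 at -3.13, Spruce_29693 at -2.89, Spruce_15715 at -3.08 and Spruce_25854 at -4.12. One 5-month reading of Spruce_15715 was at the scanner maximum. Over all 10, limma's adjusted p was 0.0815, all 4 arrays were above background, the ages did not overlap, and the gap between them was 1.89 to 4.51 log2 units. All 11 other 18-month arrays of the fit lay above both 18-month arrays of genotype 52 at each of the 10. The pair of genotype 20 had the same sign at 10 of 10, with a median gap of -1.70.

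The probes higher at 18 months had smaller differences. Spruce_17516, the one of smallest p, read 11.57 and 12.06 at 18 months and 8.96 and 9.11 at 5 months, a difference of 2.78 ± 0.48 (limma's adjusted p = 0.0815). The 10 other 18-month arrays read 6.89 to 10.56 and the day 4 array of genotype 20 read 10.80, so both older samples of genotype 52 lay above all 11. Spruce_31440 read 13.57 and 12.37 at 18 months and 9.24 and 10.11 at 5 months, a difference of 3.30 ± 0.63, and again the older roots of genotype 52 lay above the 11 others, which reached 12.09.

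Spruce_04227 and Spruce_17741 were not well above background in the young roots. Spruce_04227 read 9.80 and 9.23 at 18 months and 7.78 and 6.95 at 5 months, where it was at least 2.19-fold lower. It was above background on none of the 11 other 18-month arrays. Spruce_17741 read 9.08 and 9.13 at 18 months and 7.30 and 6.81 at 5 months, a bound of at least 1.65-fold. The pair of genotype 20 differed there by -0.05.

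Not all higher probes set genotype 52 apart from the other 18-month arrays. Spruce_01380 read 11.26 and 11.58 at 18 months and 8.47 and 7.47 at 5 months, where the reading of replicate 6b was not well above background, yet 5 of the 11 other 18-month arrays were above both older samples and 5 were below both. Spruce_30935 read 15.66 and 15.93 at 18 months and 13.28 and 13.87 at 5 months, where the young roots lay below all 11 others, which read 14.08 to 15.93. Of the others, Spruce_26396 differed by 2.29 and Spruce_30173 by 2.69. Spruce_14412 and Spruce_16637 were not well above background on either 5-month array, and were at least 4.27-fold and 6.82-fold higher at 18 months. Adjusted p over the 10 was 0.0815 to 0.0914 by limma, 5 of the 10 were above background on all 4 arrays, and the pair of genotype 20 had the same sign at 8 of 10.

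**Figure D2:**
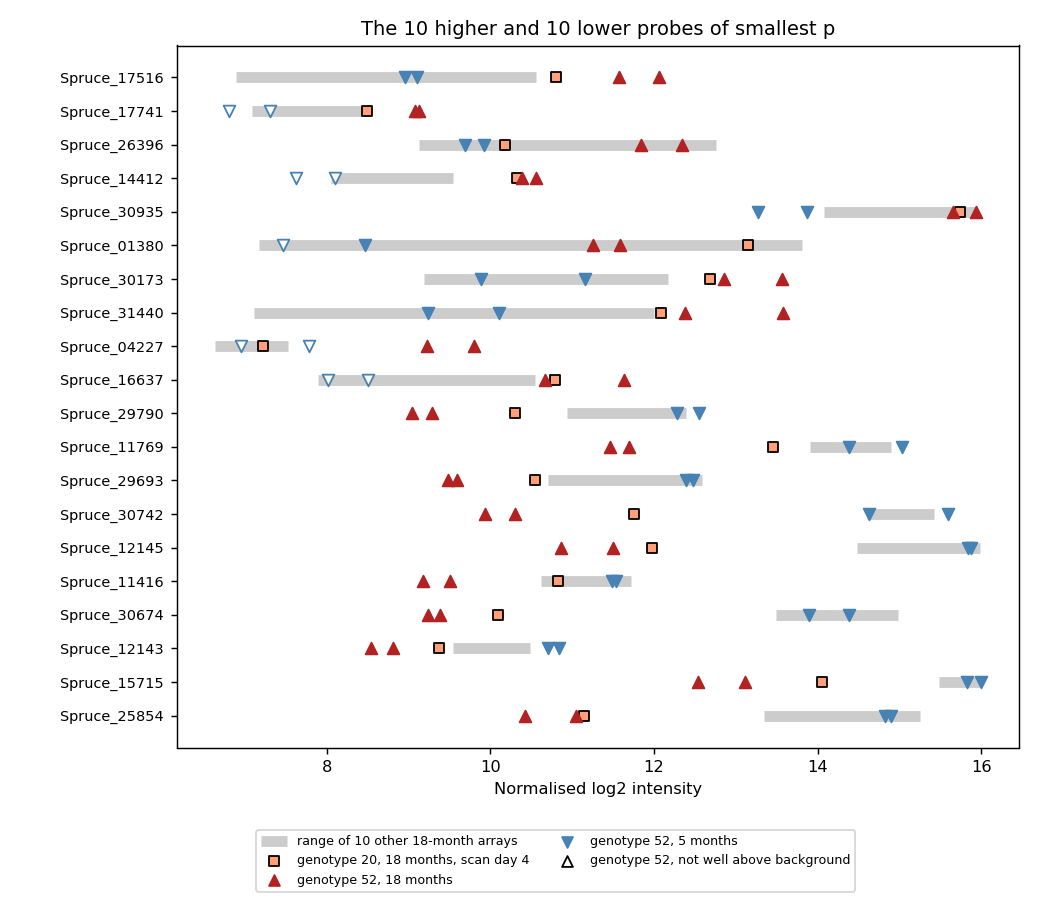
Normalised log2 intensity (horizontal axis) of the 10 probes higher and the 10 lower at 18 months with the smallest p; triangles are single arrays of genotype 52, open where not well above background, grey bars the range of 10 other 18-month arrays, and squares the day 4 array of genotype 20. At the 10 lower probes both 18-month triangles lie below every other array shown, as for Spruce_30742 at 9.94 and 10.30 against a bar from 14.60 to 15.42.

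Among probes above background on all 4 arrays and below the scanner maximum, the largest difference was that of Spruce_20481. It read 10.37 and 10.86 at 18 months and 15.82 and 15.95 at 5 months, a difference of -5.27 ± 1.00 (limma's adjusted p = 0.0815). The day 4 array of genotype 20 read 10.43, within the range of the older roots of genotype 52, and its partner read 14.84. With the day 4 term the difference was -0.86 ± 0.85. The other lower probes were Spruce_30742, Spruce_30674 and Spruce_12145, given above, and Spruce_28302, which read 8.81 and 8.65 at 18 months and 13.14 and 13.43 at 5 months.

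On the higher side the largest differences were those of Spruce_31440, Spruce_10862 at 3.06, Spruce_06823 at 3.04, Spruce_28751 at 2.91 and Spruce_19590 at 2.83. The older roots differed between themselves at Spruce_10862, with 11.43 on replicate 1 and 13.41 on replicate 6a against 9.38 and 9.33 at 5 months. Spruce_06823 read 12.96 and 13.02 at 18 months and 9.70 and 10.21 at 5 months, and the day 4 array of genotype 20 read 13.48 against 10.76 on its partner. With the day 4 term its difference was 0.32 ± 0.89.

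Many more probes were above background only in the older roots than only in the younger. Over all 32144 spruce probes, 1281 were above background on both 18-month arrays and on neither 5-month array, and 113 the other way round. A further 7521 were above background on all 4 arrays and 16907 on none. The lower count of detected probes and the higher local background on the 5-month arrays, given above, go with this imbalance, and their part in it was not tested. In such bulk samples a smaller share of cells that express a gene and less RNA per cell cannot be told apart. A probe dim on both arrays of an age has only a bound there, which sets the mean of the bright arrays against the dim arrays, each taken at its weakest signal above background or at the probe's own reading, whichever was greater.

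Most of the 1281 lay close to the background. A bound above 1-fold was had by 1113 of them, the median over all 1281 was 1.29-fold, 180 reached at least 2-fold and 12 at least 4-fold. Of these probes, 762 were above background on both 18-month arrays of genotype 20 and 832 on both of genotype 35. In the 5-month roots, 629 were above background in genotype 20 and 197 in genotype 35, with 1 array each. Of all 12629 tested probes, 9102 were above background on that 5-month array of genotype 20 and 8549 on that of genotype 35. The 1281 were thus seen less often on both 5-month arrays than tested probes in general. At 18 months, 12475 and 10935 of the tested probes were above background on the single arrays of genotype 20, and 11131 and 12259 on those of genotype 35. The 762 and 832 of the 1281, counted on both arrays at once, were smaller shares as well. A smaller share was thus not particular to 5 months. Only 4 of the 1281 were above background on none of the other arrays of the fit. The probes of highest bound were Spruce_16637, at least 6.82-fold higher at 18 months, and Spruce_02899 at 5.96, Spruce_31229 at 4.67, Spruce_26254 at 4.54 and Spruce_29863 at 4.48. Spruce_16637 read 11.63 and 10.66 at 18 months and 8.02 and 8.50 at 5 months. Spruce_02899 differed between the older samples, with 9.97 on replicate 1 and 11.93 on replicate 6a, against 6.89 and 7.91 at 5 months.

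The 113 probes above background only at 5 months were fewer. Their median bound was 2.64-fold, 95 reached at least 2-fold and 22 at least 4-fold. Spruce_18434 was at least 122-fold lower at 18 months, with 6.72 and 6.38 on the older arrays and 13.92 and 15.55 on the younger. It was bright on 9 of the 11 other 18-month arrays, up to 15.98, and dim on the day 4 array of genotype 20, at 6.34, and on genotype 35 at 18 months, replicate 5, at 6.42. Spruce_31939 was at least 50.6-fold lower, with 7.18 and 6.98 at 18 months and 13.79 and 13.15 at 5 months. Of the 11 other 18-month arrays only that of day 4 was dim, at 6.89, and the rest read 13.10 to 14.48.

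Spruce_16422 at 20.9, Spruce_29430 at 20.0 and Spruce_22540 at 10.7 were the other probes of this class with the highest bounds, each a least fold by which the older roots were lower. Spruce_29430 read 8.04 and 7.88 at 18 months and 12.28 and 12.27 at 5 months. At all 5 the day 4 array of genotype 20 was dim, reading 6.34 to 7.65, and its partner was bright, reading 11.90 to 14.64. The older roots of genotype 52 were not well above background at any of the 5, nor was the day 4 array of genotype 20 at 3 of them, so these gaps have a lower limit only, and their sizes were not compared.

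**Figure D3:**
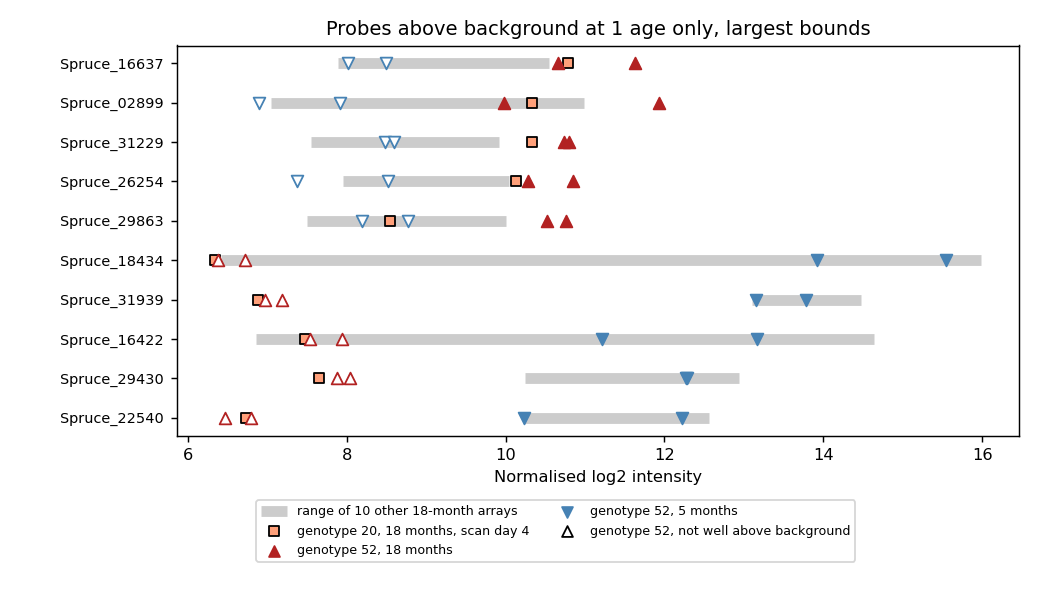
Normalised log2 intensity (horizontal axis) of the 5 probes of highest bound that were above background in genotype 52 at 18 months only (upper 5) and at 5 months only (lower 5); triangles are single arrays of genotype 52, open where not well above background, grey bars the range of 10 other 18-month arrays, and squares the day 4 array of genotype 20. At the lower 5 probes the square lies beside or below the dim 18-month triangles, as for Spruce_31939 at 6.89 beside 7.18 and 6.98.

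The likeness to the day 4 array of genotype 20 held beyond the named probes. Over the 12629 tested probes, the age difference in genotype 52 and the gap between the pair of genotype 20 (day 4 minus day 7, both 18 months) correlated at 0.49 (Pearson) and 0.41 (Spearman), as a description over probes that are not independent replicates. The arrays of both differences were normalised together, and 5-month replicate 4 was scanned on day 7 like the partner array. Signs were the same at 7899 probes (62.5 percent) of all tested, at 919 (77.8 percent) of the 1181 higher at an unadjusted p below 0.05 and at 791 (79.0 percent) of the 1001 lower. They were the same at 97 (85.8 percent) of the 113 probes above background only at 5 months and at 892 of the 1281 above background only at 18 months.

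**Figure D4:**
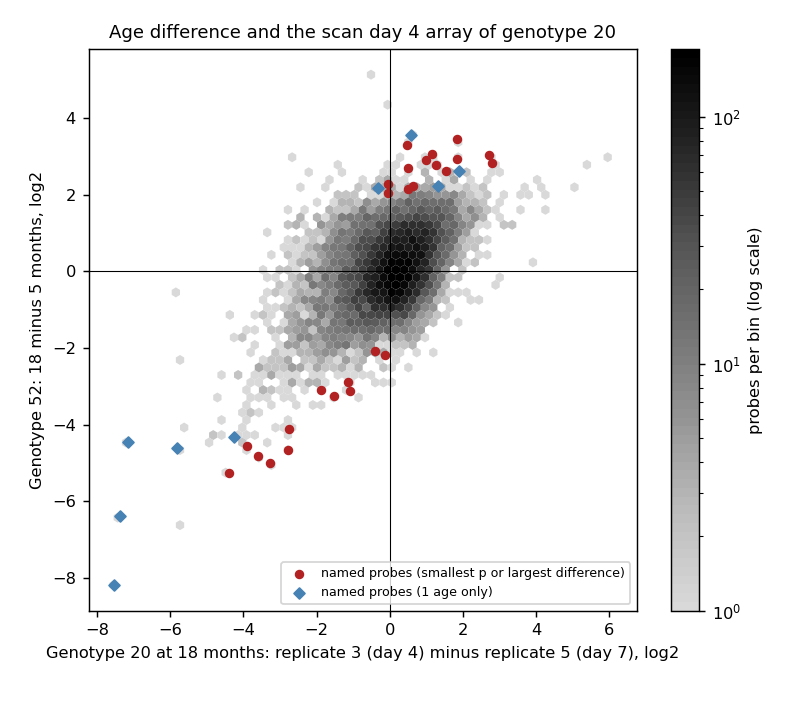
Age difference in genotype 52 (vertical axis, 18 minus 5 months, log2) against the gap between the 18-month arrays of genotype 20 (horizontal axis, day 4 minus day 7, log2) for 12629 probes, counted in grey bins with a log colour scale, with named probes in colour. The cloud rises from lower left to upper right (Pearson 0.49). The 5 probes of highest bound at 5 months only lie at the lower left, where positions rest on readings near the background.

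The 18-month mean of genotype 52 lay outside the range of other 18-month roots more often than its 5-month mean did. At 502 of the 1001 lower probes, the 18-month mean of genotype 52 lay below all 10 other 18-month arrays not scanned on day 4, and at 525 of the 1181 higher probes it lay above all 10. The 5-month mean was outside that range at 246 of the 1001 (24.6 percent) and 200 of the 1181 (16.9 percent). Over all tested probes the 18-month mean lay above all 10 at 1464 and below all 10 at 908, together 18.8 percent. For the 5-month mean these were 845 and 459, together 10.3 percent. The 18-month mean joins arrays that correlated at 0.913 and the 5-month mean arrays that correlated at 0.736, so the shares are not strictly comparable between ages. These probes were chosen by the same age contrast, so the counts are a description.

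Differences were spread over the range of intensity. When the tested probes were divided by mean log2 level into 4 classes of equal size, from the dimmest to the brightest, the share higher at 18 months by over 1 log2 unit was 12.1, 13.5, 15.5 and 17.2 percent. The share lower by over 1 was 4.97, 10.7, 12.0 and 12.4 percent. Lower values were thus least frequent in the dimmest class, and the cause was not tested. The tested probes included 1281 above background only at 18 months and 113 only at 5 months.

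Genotypes 20 and 35 give the same contrast of ages in other clones, with a lone 5-month array each. As these clones are titled Fast and genotype 52 Slow, a difference between clones and one between these classes cannot be told apart. In genotype 52, 14.6 percent of the tested probes were higher and 10.0 percent lower by over 1 log2 unit at 18 months. In genotype 20 these shares were 7.54 and 7.62 percent, and in genotype 35 they were 9.82 and 7.40 percent. The tested probes were chosen by detection in genotype 52, so these shares rank neither the genotypes nor the directions. Of the 1181 probes higher at an unadjusted p below 0.05, 525 were higher in genotype 20 (median difference -0.10) and 864 in genotype 35 (median 0.47). Of the 1001 lower, 577 were lower in genotype 20 (median -0.14) and 850 in genotype 35 (median -0.64). Over all 12629 tested probes the median was 0.09 in genotype 20 and -0.03 in genotype 35.

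A difference between the age effect of genotype 52 and the mean of those in genotypes 20 and 35 passed the test at 0 of 12629 probes (0 percent), with a lowest adjusted p of 0.531 by limma. Without adjustment, 845 probes (6.69 percent) had a p below 0.05, 503 with the larger value in genotype 52 and 342 with the smaller. With only the probes above background on all 4 arrays of genotype 52 in the fit, these were 239 and 270. Without the day 4 array of genotype 20, 17 probes passed, 2 with the larger value in genotype 52 and 15 with the smaller. Among these were Spruce_17516, with a difference of 4.07 (limma's adjusted p = 0.0227), and Spruce_29790, with -3.46 (limma's adjusted p = 0.0361).

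Spruce_17516 was higher in the older roots of genotype 52 by 2.78, but in genotype 35 it read 8.31 and 8.96 at 18 months and 11.11 at 5 months, a difference of -2.48. In genotype 20 it read 10.80 and 9.53 at 18 months and 9.66 at 5 months. Spruce_31440 likewise read 8.97 and 9.96 at 18 months and 11.64 at 5 months in genotype 35, against the higher older values of genotype 52. Genotype 35 was thus opposite in sign to genotype 52 at both probes, while genotype 20 differed by only 0.51 and -0.09. The differences between genotype 52 and the mean of the others were 3.77 ± 0.63 and 4.43 ± 0.84.

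Spruce_20571 was lower in the older roots of genotype 52 only among the genotypes sampled at both ages. It read 9.91 and 9.70 at 18 months and 13.23 and 12.32 at 5 months, while genotype 20 read 9.10 and 9.14 against 7.80 and genotype 35 read 10.29 and 9.68 against 7.06. Both lone 5-month values of genotypes 20 and 35 were not well above background, and the measured difference between the genotypes was -5.09 ± 0.89 (limma's adjusted p = 0.531). What stood out there were the bright 5-month arrays of genotype 52, since its 18-month values lay among those of other 18-month arrays, which read 7.86 to 10.29.

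Spruce_02790 read 11.38 and 12.19 at 18 months and 12.88 and 13.26 at 5 months in genotype 52, a difference of -1.29. Genotype 20 read 11.68 and 11.96 against 9.54, a difference of 2.28, and genotype 35 differed by 0.07. Spruce_29790, with an age difference of -3.25 in genotype 52, differed by 1.18 in genotype 20 and by -1.51 in genotype 35. Spruce_04227 read 7.22 and 6.73 at 18 months in genotype 20, neither well above background, against 8.88 at 5 months. In genotype 35 none of its 3 arrays was well above background.

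**Figure D5:**
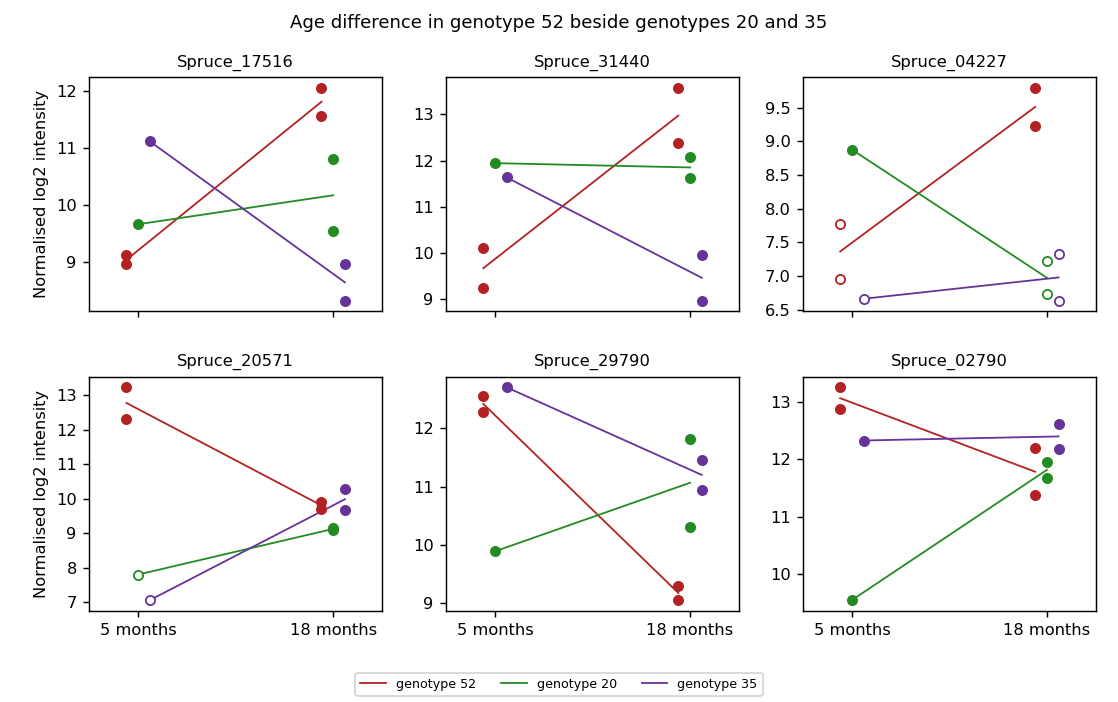
Normalised log2 intensity (vertical axis) at 5 and 18 months of the 6 probes with the smallest p for a difference between genotype 52 and the mean of genotypes 20 and 35; points are single arrays, open where not well above background, and lines join the means of each genotype. Spruce_20571 goes from 13.23 and 12.32 to 9.91 and 9.70 in genotype 52 and upwards in the other 2 genotypes.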

How the data were processed

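Per the file headers, each deposited scanner file gives the median intensity of 34992 spots and of their local background, not normalised. A deposited table holds log2 values with a floor at 0. How the authors made it, and with which image software, was not given in the sources used here. Against matching scanner files its slope on log2 net intensity was 0.994 to 1.01 at 3 genotype 52 arrays. Its centring stays unknown, the medians of its genotype 52 columns were 4.92, 5.08, 4.28 and 1.59, and 0 columns lacked a sample.

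With limma 3.58.1 in R 4.3.3, normexp (offset 50) was run over all spots, control spots were dropped, and 17 arrays were quantile-normalised. The 2 arrays of genotype 76, scanned in a later period, 1 of them with a channel name of another wavelength, were left out. Probes above background on at least 2 of the 4 genotype 52 arrays were tested, 12629 of 32144, two-sided, with 7 residual degrees of freedom, lmFit and eBayes, and Benjamini-Hochberg adjustment at 0.05. The fits were tested on simulated data. The scan period was fitted as a fixed term and the scan day as a random block.

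Named probes were, per direction, the 10 of smallest p, the 5 of largest difference among probes above background on all 4 arrays and never at the scanner maximum, the 5 of highest bound among probes above background at 1 age, and the 3 of smallest p for the difference between genotypes, 37 probes in all. The arrays, rules and tests were chosen with earlier results of these data known.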

Additional observations from a re-analysis of the deposited data

Results flagged for a closer look

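Spruce_20571 is listed because the age difference ran in opposite directions: both 18-month arrays of genotype 52 lay below both 5-month arrays, while the 4 arrays of genotypes 20 and 35 at 18 months lay above the 5-month array of their genotype. The difference between the genotypes was -5.09 log2 units, and it did not pass the test (limma's adjusted p = 0.531). The 5-month readings of genotypes 20 and 35 were not well above background.

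Control spots named GFP1 and GFP2 gave signal, while those named GFP, Empty, Buffer and Alien were above background on none of the 4 genotype 52 arrays (0 percent). GFP1 spots, 342 on each array, were above background at 85.7 percent on 18-month replicate 1, 81.9 percent on 18-month replicate 6a, 38.0 percent on 5-month replicate 4 and 5.56 percent on 5-month replicate 6b. GFP2 spots were above background at 77.2, 71.9 and 41.5 percent on the first 3 of these arrays and at 0.292 percent on 5-month replicate 6b. The median net intensity of GFP1 was 470.5 and 263 at 18 months and 267.5 and 192.5 at 5 months. The sources used here do not say what these controls were hybridised to.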

How the results depend on the processing

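No paired analysis was possible because the ages of genotype 52 share fewer than 2 replicate numbers (1 and 6a against 4 and 6b). In the deposited table, the columns named for genotype 52 matched scanner files of other genotypes, all labelled 18 months. By the labels of those files its columns compare no ages, so its values are no check of the age difference. Which source carries the right names is not known. The files of both 18-month replicates best matched columns named for genotype 61, and that of 5-month replicate 6b a column of genotype 20, all at 18 months. Were the names of the table right, the comparison made here would not be one of ages within genotype 52. The count of probes passing for age, 0, stayed 0 in limma with other background corrections, normalisations, filters and array weights. That count also stayed 0 with all 19 arrays, with genotypes 20, 35 and 52 alone and with scan period or scan day in the fit. That count was 0 in the deposited table too, which is no check for the reason given. It was 25 with the 4 arrays alone, 287 within the first scan period, and, in settings chosen after seeing the data, 1 with the scan day 4 term and 156 with the spread estimated without the day 4 array of genotype 20. Leaving out each genotype 52 replicate gave 0 to 4: Spruce_08103 without 18-month replicate 1, Spruce_04016, Spruce_17254, Spruce_23142 and Spruce_23791 without 5-month replicate 4, and Spruce_02805 without 5-month replicate 6b, all named after their values were seen. The lone 5-month array left was not well above background at Spruce_04016, Spruce_17254, Spruce_23791 and Spruce_02805. The count at an unadjusted p below 0.05, 2182, was 1150 to 2890 with a replicate left out, 1282 with all 19 arrays, 3836 without a filter, 1275 with probes above background on all 4 arrays, 456 with the day 4 term and 3752 in the deposited table, of which 3751 were higher. For the difference between genotypes, passing probes numbered 0 to 17 with a replicate left out and 1 with the day 4 term (Spruce_15536, 4.98, adjusted p = 0.0492). At an unadjusted p below 0.05, 845 became 462 to 1606 with a replicate left out, 396 with all 19 arrays, 1764 without a filter, 509 with the stricter filter, 266 in the deposited table and 248 with the day 4 term. Probes above background only at 5 months numbered 75 at 1 background standard deviation and 138 at 3, against 113. The causes were not tested. Tests of the difference between genotypes with 4 arrays or within the first period were not run, since too few arrays remain.

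Of 935 recomputed values of named probes, 33 changed sign, 30 of them in the deposited table. The median difference of all tested probes there was 2.53 as deposited and 0.40 after quantile normalisation. The sample names of that table do not match the scanner files, and which of the names are right is not known. The turned signs of that table are therefore no check of the direction with age. As deposited, the age difference turned to 0.95 for Spruce_29790, 0.37 for Spruce_11769, 0.76 for Spruce_29693, 2.03 for Spruce_30742, 1.08 for Spruce_12145, 4.76 for Spruce_11416, 1.45 for Spruce_30674, 1.77 for Spruce_12143, 1.43 for Spruce_15715, 3.52 for Spruce_25854, 2.28 for Spruce_28302, 1.00 for Spruce_31939, 2.07 for Spruce_16422, 0.62 for Spruce_29430, 4.15 for Spruce_20571 and 4.39 for Spruce_02790. The difference between genotypes turned to 1.10 for Spruce_20571, 0.10 for Spruce_29790 and 4.37 for Spruce_02790. After quantile normalisation of the table, the age difference turned to -0.38 for Spruce_26396, 3.40 for Spruce_11416, 1.35 for Spruce_25854, -0.18 for Spruce_10862, 0.14 for Spruce_28302, -1.31 for Spruce_29863, 0.70 for Spruce_16422, 2.00 for Spruce_20571 and 2.26 for Spruce_02790, and the difference between genotypes to -0.87 for Spruce_04227 and 3.02 for Spruce_02790. With the day 4 term the age difference turned to 0.98 for Spruce_31939, 2.71 for Spruce_16422 and 1.23 for Spruce_22540, each from 18-month readings not well above background, so that neither size nor sign is secure. The other directions held, and 63 values passed that had not.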

Other observations

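Spruce_02805, which passed the test without 5-month replicate 6b, read 14.70 and 15.99 at 18 months but 7.12 on 5-month replicate 4 and 13.32 on 5-month replicate 6b. The reading of 7.12 was not well above background, and it is the lone 5-month array once replicate 6b is left out, so the size of that difference is not given. Spruce_17254 read 12.31 and 11.74 at 18 months, 11.87 on 5-month replicate 4 and 6.62 on 5-month replicate 6b. Spruce_23142 was bright on 5-month replicate 6b alone, at 12.49 against 7.32 to 8.20 on the other 3 arrays. These probes were chosen after their values were seen.

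Age differences of neighbouring probes were weakly alike, as a description: Pearson's correlation was 0.12 over 5121 pairs of consecutive probe IDs, 0.11 over 4725 pairs of adjoining spots in a row of the array and 0.12 over 4783 pairs at the same place in adjoining rows.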
